A study of Homo sapiens with 60 samples.

Results

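In A549, an established line of human lung carcinoma cells, the medium dose of a water extract of Coptidis Rhizoma (CR, 26 µg/mL) was compared with its low dose (5.2 µg/mL), 3 libraries against 3. These 6 libraries were taken by treatment and dose label from the 60 of the series, in which A549 cells received DMSO, wortmannin or extracts of 6 crude drugs at 3 doses each. Every group had 24 h of treatment and 3 libraries, and no group carried a genetic change. Beside the CR doses stand the medium (100 µg/mL) and low (20 µg/mL) doses of Zizyphi Fructus (ZF, jujube), which form another 5-fold step, and the DMSO vehicle (0.1% by the sample labels, 2% by the design text). The CR doses are 1/25, 1/5 and the whole of a top dose, 130 µg/mL, that the design text ties to the IC20, the concentration with 20% inhibition. The question is what the first 5-fold step adds to the response.

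The rhizome of Coptis plants is rich in protoberberine alkaloids, of which berberine is the best known. Berberine is a cation that gathers in mitochondria and slows complex I of the respiratory chain, and in other cells it is also described as a ligand of the aryl hydrocarbon receptor. Which constituents of this extract reached the cells was not measured.

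The CR medium libraries held 26868400 to 27077000 estimated counts and the CR low libraries 21647700 to 30593200 (totals to 6 digits). Replicates correlated at 0.989 to 0.992 at either dose (Pearson, log2 CPM). All 5 epithelial markers of the fixed list were above the filter on low counts, against 2 of 5 fibroblast, 1 of 5 blood cell and 0 of 5 endothelial markers. CR low replicate 3 stood apart from the other CR low libraries, with a chi-square per degree of freedom of 27.5 and 30.3 against them, where the other pair gave 6.44. The slope of its log2 CPM against log2 length of transcripts was 0.907, against 0.97 and 0.975 in the other CR low libraries and 0.934, 1.023 and 0.977 in the CR medium libraries. Where leaving out this or another library ended the call of a named gene, that library, or the count of the list without it, is given with the gene. CPM values use a library size adjusted by TMM, and a gene is called where its Benjamini-Hochberg adjusted p is under 0.05. Whether replicates came from separate cultures is not in the labels, and p-values therefore cover the spread between these libraries only.

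The step to the medium dose moved many genes by a little. Of 17129 genes tested, 531 were called (3.1%), 274 of them higher at the medium dose (1.6%) and 257 lower (1.5%). Only 25 of the higher and 29 of the lower genes differed by at least 1.5-fold, and 3 and 9 by at least 2-fold. In 514 of the 531 the 3 medium libraries lay on one side of the 3 low libraries, as they did for 2753 of all tested genes. Among genes with a mean log2 CPM of at least 1, MT-ND5 of the mitochondrial genome fell most, and NIBAN1, CYP1A1 and GREM1 rose most. The count rests on a spread shared by all 60 libraries: it was 189 in a fit of the 18 CR and ZF libraries, all of them among the 531, and 51 in a fit of the 6 CR libraries alone, 49 of them among the 531. It was 309 without CR medium replicate 2, 337 without CR low replicate 3, and 1300, all 531 included, when the slope on length entered the fit as a covariate. Log2 changes of CR medium over CR low correlated with transcript length at 0.187 (Spearman), and those of ZF medium over ZF low at 0.148.

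**Figure D1:**
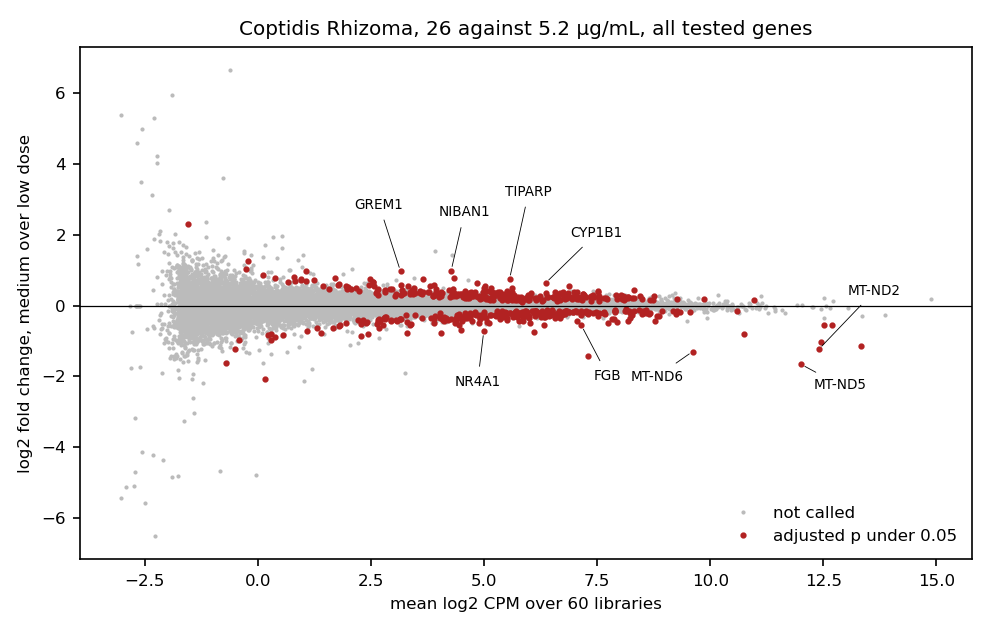
Log2 fold change of CR medium (26 µg/mL) over CR low (5.2 µg/mL) against mean log2 CPM over 60 libraries, for 17129 tested genes. Red points are the 531 called genes; the 8 called mitochondrial mRNAs lie below 0 at the right, at -1.66 (MT-ND5) to -0.54 (MT-CYB).

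Some targets of the aryl hydrocarbon receptor (AHR), a ligand-activated transcription factor that induces enzymes of xenobiotic metabolism, were among the largest rises. Of 9 tested members of the list, 4 rose, 0 fell and 5 were not called, with a median log2 change of 0.08 against 0.01 over all tested genes, of which 1.6% rose. CYP1B1, a cytochrome P450 that oxidises polycyclic hydrocarbons and oestrogens, had 113, 131 and 130 CPM at the medium dose, against 80.7, 80.2 and 79.7 CPM at the low dose. No medium library came near a low one, and the log2 change was 0.64 ± 0.06 (SE, adjusted p = 4.92e-10). TIPARP, an ADP-ribosyltransferase that restrains AHR, had 64, 75.7 and 75 CPM at the medium dose, against 42.8, 45.3 and 39.8 CPM at the low dose. The groups again stood apart, by 0.75 ± 0.08 log2 units (adjusted p = 1.86e-09). CYP1A1, the classical AHR-induced monooxygenase, was a low transcript, with 3.69, 3.7 and 4.78 CPM at the medium dose and 2.65, 1.66 and 1.87 CPM at the low dose. Its log2 change was 0.99 ± 0.19 (adjusted p = 0.000463). AHRR, the AHR repressor, averaged 4.04 ± 0.53 CPM at the medium dose and 2.67 ± 0.63 CPM at the low dose (SD, n = 3 each), a log2 change of 0.58 ± 0.17 (adjusted p = 0.0478). Its call was lost without CR low replicate 1 or 3 or CR medium replicate 2 or 3 (adjusted p 0.106 to 0.3). AHR itself (log2 change -0.07) and NQO1, which NRF2 also controls (0.00), were not called. In the fit of the 6 CR libraries alone, 2 members were called.

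The promoters of CYP1A1 and TIPARP are shown for the size of their changes. AHR binds the core GCGTG, which was searched on both strands in windows of 300 bases, 250 before to 50 after each start (RefSeq, GRCh38.p14). Of the 4 genes that rose, 3 were in the RefSeq table and each held a match in at least 1 window, in 4 of 6 windows in all, against 36.5% of 35116 windows of the same length. AHRR, with matches in both of its windows, is named only. CYP1B1 had no window in the RefSeq table and was not searched. Capitals mark the match, as GCGTG or its reverse complement CACGC.
CYP1A1 (chr15:74725479-74725778, minus strand, match starting 57 bases before the start): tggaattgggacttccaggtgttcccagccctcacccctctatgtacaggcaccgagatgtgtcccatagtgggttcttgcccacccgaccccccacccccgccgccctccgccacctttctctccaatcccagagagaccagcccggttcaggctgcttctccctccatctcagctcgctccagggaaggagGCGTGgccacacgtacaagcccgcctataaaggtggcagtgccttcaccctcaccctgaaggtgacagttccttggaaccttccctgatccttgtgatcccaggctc
TIPARP (chr3:156674340-156674639, plus strand, matches starting 208 and 142 bases before the start): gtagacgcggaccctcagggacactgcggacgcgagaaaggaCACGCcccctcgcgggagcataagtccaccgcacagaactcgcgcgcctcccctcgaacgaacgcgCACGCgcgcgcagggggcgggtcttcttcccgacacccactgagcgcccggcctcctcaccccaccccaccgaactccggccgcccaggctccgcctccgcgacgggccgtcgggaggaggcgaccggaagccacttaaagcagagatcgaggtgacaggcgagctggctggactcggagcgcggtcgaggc
A match is a string of letters and not a bound site, and no binding was measured.

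Target genes of the integrated stress response, in which ATF4 raises genes of amino acid supply and growth arrest after eIF2alpha is phosphorylated, were called only upward. Of 29 tested members, 16 rose, 0 fell and 13 were not called, where 1.6% of all tested genes rose. The median log2 change was 0.25. TRIB3, a pseudokinase that feeds back on ATF4, had 274, 249 and 254 CPM at the medium dose, against 173, 172 and 180 CPM at the low dose. The log2 change was 0.56 ± 0.06 (adjusted p = 1.17e-08). STC2, a secreted glycoprotein, had 115, 132 and 125 CPM at the medium dose and 90.6, 90.8 and 81.9 CPM at the low dose, a log2 change of 0.50 ± 0.06. For both genes every medium library exceeded every low library by a clear margin. ADM2, a secreted peptide of the calcitonin family, changed most in the list, with 8.82, 8.46 and 8.74 CPM at the medium dose, against 5.56, 5.55 and 3.99 CPM at the low dose (log2 change 0.78 ± 0.14, adjusted p = 0.000394). SESN2, a leucine sensor that restrains mTORC1, averaged 41.3 CPM at the medium dose and 29.7 CPM at the low dose (0.48 ± 0.08). PPP1R15A, which directs eIF2alpha dephosphorylation, averaged 44.3 CPM at the medium dose and 33.7 CPM at the low dose (0.40 ± 0.06).

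The named enzymes and transporters of the list moved by differing amounts, ALDH1L2 the most among them. ASNS, asparagine synthetase, had 318, 318 and 313 CPM at the medium dose, against 263, 253 and 275 CPM at the low dose, a log2 change of 0.26 ± 0.05 (adjusted p = 0.00142). PYCR1, of proline synthesis, rose by 0.25 ± 0.04, PSAT1, of serine synthesis, by 0.17 ± 0.04, MTHFD2, of the mitochondrial folate pathway, by 0.20 ± 0.04, and ALDH1L2, of the same pathway, by 0.63 ± 0.16. MTHFD2 lost its call without CR medium replicate 2 or CR low replicate 2, and ALDH1L2 without CR medium replicate 2 or CR low replicate 3. SLC6A9, a glycine transporter, rose by 0.41 ± 0.09. CHAC1, which degrades glutathione, averaged 26.9 ± 0.91 CPM at the medium dose and 20.9 ± 1.23 CPM at the low dose (0.36 ± 0.07). DDIT3, which encodes the stress factor CHOP, had 35.4, 29.8 and 30.8 CPM at the medium dose and 23.3, 21.1 and 24.6 CPM at the low dose (0.48 ± 0.11, adjusted p = 0.00872), a call lost without CR medium replicate 1 or CR low replicate 2. The mRNA of ATF4 itself differed by 0.02, and SLC7A5, an amino acid transporter, by 0.02, neither called. GDF15, a stress-induced cytokine, missed the threshold at 0.28 ± 0.09 (adjusted p = 0.0614) and passed it without CR medium replicate 2. The list count was 14 to 16 with each of the 6 libraries left out, and 4 in the fit of the 6 libraries alone.

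ATF4 and CHOP bind a composite element with the letters TGATGNAAN, which was searched on both strands in the same windows. It was found in 2 of the 14 genes that rose and were in the table, in 2 of 20 windows, against 3.61% of all 35116 windows. CHAC1 is shown as one of these 2. ALDH1L2 and PYCR1 also rose but had no window in the RefSeq table and were not searched.
CHAC1 (chr15:40953221-40953520, plus strand, match in capitals, on the minus strand, starting 210 bases before the start): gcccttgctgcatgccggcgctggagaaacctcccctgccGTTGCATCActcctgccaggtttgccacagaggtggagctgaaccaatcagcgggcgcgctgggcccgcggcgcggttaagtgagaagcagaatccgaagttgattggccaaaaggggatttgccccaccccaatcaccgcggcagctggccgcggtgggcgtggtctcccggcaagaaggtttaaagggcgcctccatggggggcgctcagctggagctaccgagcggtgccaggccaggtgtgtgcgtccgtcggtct

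Chaperones were mostly not called. Of 20 tested endoplasmic reticulum chaperones and regulators, 1 rose and 4 fell. Their median log2 change was -0.04, and of all tested genes 1.6% rose and 1.5% fell. The riser, ERN1, is the stress sensor IRE1alpha (0.35 ± 0.08), and its call was lost without CR low replicate 3. CALR, calreticulin, fell by 0.29 ± 0.05, with 349, 312 and 332 CPM at the medium dose against 396, 389 and 426 CPM at the low dose. Log2 changes of the other secretory pathway chaperones that fell were -0.31 for MANF, -0.20 for DNAJB11 and -0.15 for PDIA4. Each lost its call with at least 4 of the 6 libraries left out in turn, CR low replicate 3 among them. HSPA5, the main chaperone of that compartment, differed by 0.10 and was not called. The 4 falls became 1 without CR low replicate 1, without CR medium replicate 2 or without CR low replicate 3, and 2 without CR medium replicate 3. Among 17 heat shock genes, 0 rose and 2 fell, the co-chaperones CHORDC1 (log2 change -0.18) and BAG3 (-0.16). The count was 0 without CR medium replicate 2 and 1 without any of CR low replicate 1, 2 or 3 or CR medium replicate 3. CHORDC1 lost its call without CR medium replicate 1 or 2 or CR low replicate 3. BAG3 lost it without CR medium replicate 2 or 3 or CR low replicate 1 or 2.

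**Figure D2:**
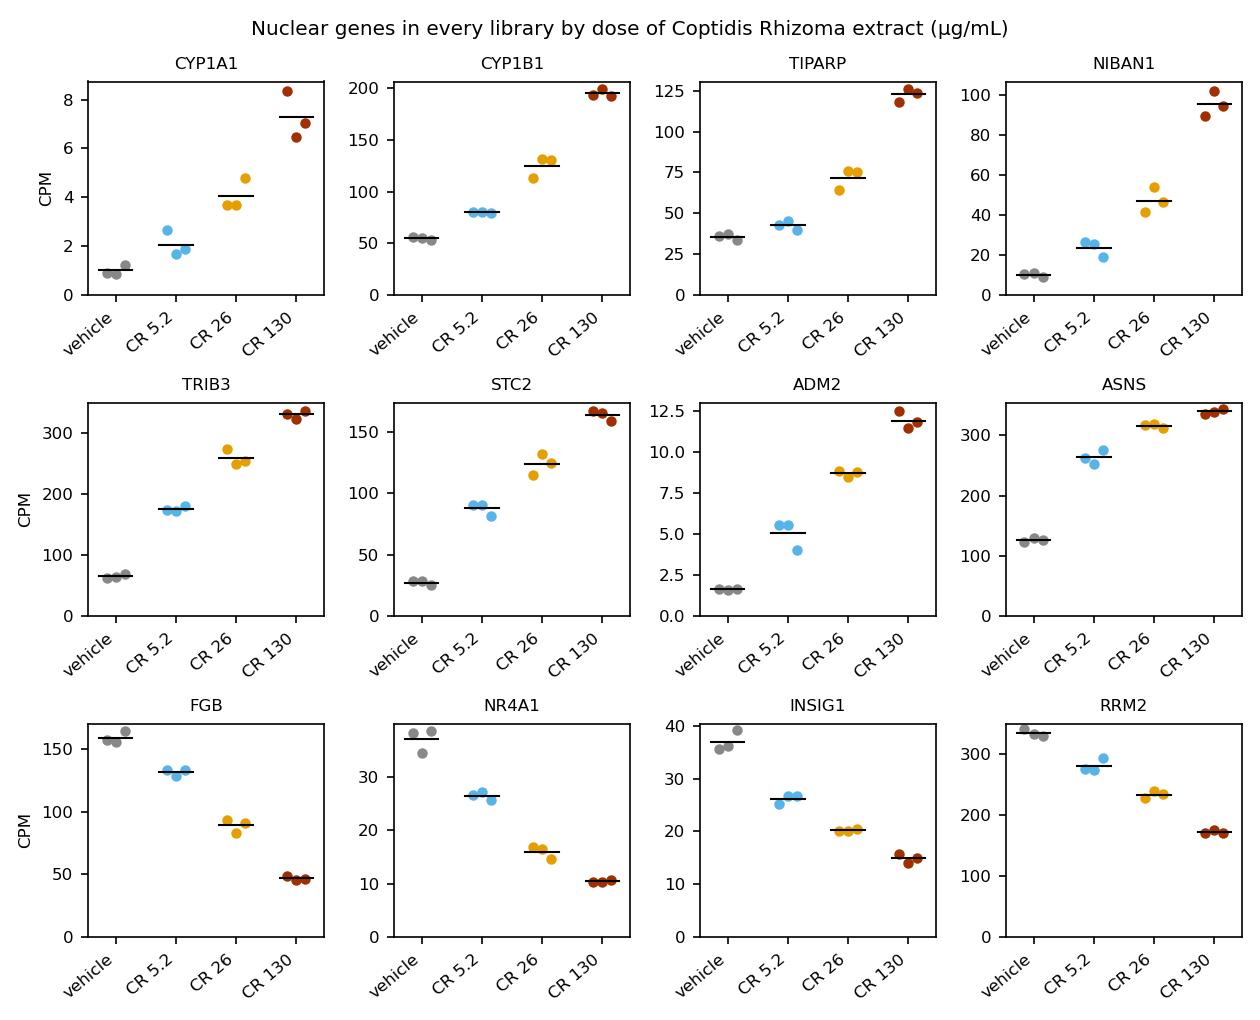
CPM of 12 nuclear genes in each vehicle, CR 5.2, CR 26 and CR 130 µg/mL library (points, 3 per group) with the group mean (line), on linear axes from 0. At 26 µg/mL the 3 points lie above those at 5.2 µg/mL for the first 8 genes, from CYP1A1 to ASNS, and below them for FGB, NR4A1, INSIG1 and RRM2.

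The mitochondrial genome gave the largest falls of well expressed genes. It encodes 13 subunits of the respiratory chain and ATP synthase, besides 2 ribosomal RNAs and the tRNAs, as long transcripts that are later cut. Of the 13 mRNAs, 0 rose, 8 fell and 5 were not called, with a median log2 change of -0.55, where 1.5% of all tested genes fell. MT-ND5, a complex I subunit, had 7456, 5933 and 5016 CPM at the medium dose, against 24080, 18390 and 15800 CPM at the low dose. Every low library held at least 2 times the level of any medium library, and the log2 change was -1.66 ± 0.20 (adjusted p = 2.3e-07). MT-ND6, the complex I subunit read from the other strand, had 1549, 1467 and 1003 CPM at the medium dose and 4027, 2667 and 3197 CPM at the low dose (-1.30 ± 0.16, adjusted p = 1.95e-07). MT-ND2 had 3887, 3427 and 3100 CPM at the medium dose, against 9942, 9302 and 5244 CPM at the low dose (-1.23 ± 0.15). MT-ND4 had 4349, 4115 and 3188 CPM at the medium dose, against 10270, 9715 and 5576 CPM at the low dose (-1.13 ± 0.13). In both of these complex I genes CR low replicate 3 lay well under the other low ones and still above all medium libraries. MT-ND1 showed the same layout, with 3679, 3347 and 2971 CPM at the medium dose and 8274, 7942 and 4359 CPM at the low dose (-1.04 ± 0.14). MT-CYB, the complex III subunit, fell by 0.54 ± 0.11, with 11580, 11780 and 9817 CPM at the medium dose, against 17550, 16620 and 14200 CPM at the low dose.

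MT-ND3 (-0.82 ± 0.15) and MT-CO2 (-0.55 ± 0.14) were called although the groups overlapped, with CR low replicate 3 at 813 CPM for MT-ND3 and 2341 CPM for MT-CO2. MT-CO2 lost its call without CR low replicate 1 or 2 or CR medium replicate 2 or 3. Not called were the other cytochrome oxidase subunits MT-CO1 (-0.28) and MT-CO3 (-0.29), the ATP synthase subunits MT-ATP6 (-0.34) and MT-ATP8 (0.20), and MT-ND4L (-0.36). MT-CO1 had 8989, 7345 and 7036 CPM at the medium dose, against 10910, 10880 and 6500 CPM at the low dose. Without CR low replicate 3, 11 of the 13 mRNAs were called as lower and MT-CO1 was one of them (-0.48 ± 0.10, adjusted p = 0.00194), while MT-ND5 stood at -1.79 ± 0.22. With the 6 CR libraries alone, 1 mRNA, MT-ND5, was called (adjusted p = 0.0116), with a log2 change of -1.67. Normalisation on nuclear genes left the count at 8. Copies of these genes lie in the nuclear genome, and their counts share reads with the originals: MTND2P28 fell by 1.43 ± 0.22 and cannot be told apart from MT-ND2. The sources used here do not give the strand setting of the counting, and reads of MT-ND6 cannot be told apart from antisense reads of its neighbours MT-ND5 and MT-CYB.

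The ribosomal RNAs of mitochondria were not called; they are named after their values were seen. All libraries were made from poly(A) RNA. Counts of mitochondrial transcripts, MT-ND6 and the ribosomal RNAs included, can therefore reflect poly(A) capture as well as amount, and the 2 were not measured apart. MT-RNR1, the small one, had 39580, 33760 and 35640 CPM at the medium dose, against 34060, 32570 and 26770 CPM at the low dose (log2 change 0.22 ± 0.09, adjusted p = 0.221). MT-RNR2, the large one, had 98980, 86800 and 87980 CPM at the medium dose, against 90650, 84120 and 67990 CPM at the low dose (0.17 ± 0.08, adjusted p = 0.306). As shares of all counts, mitochondrial mRNAs made up 4.9, 4.5 and 4.01% at the medium dose, against 9.07, 8.54 and 5.95% at the low dose. Mitochondrial rRNAs made up 12.6, 11.3 and 11.7% at the medium dose and 11.1, 10.6 and 8.9% at the low dose (95% Wilson intervals reach at most 0.0125 percentage points to either side). In the vehicle libraries these shares were 7.11 to 7.68% for mRNAs and 2.33 to 2.52% for rRNAs.

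Across the doses the mitochondrial genes followed different courses. Mean CPM of MT-ND5 was 3439 in vehicle, 19430 at 5.2 µg/mL, 6135 at 26 µg/mL and 1928 at 130 µg/mL. MT-CYB took a like course, with 4731, 16130, 11060 and 3074 CPM in the same order. MT-ND4 instead was highest in vehicle, with 10040, 8520, 3884 and 5239 CPM. MT-RNR1, as captured in poly(A) libraries, stood at 1533 CPM in vehicle and at 31140, 36330 and 22300 CPM over the doses. The low dose was called higher than vehicle for MT-ND5 (2.50), MT-ND6 (2.52), MT-CYB (1.77) and MT-RNR1 (4.34), and lower for MT-CO1 (-0.83), all on the log2 scale. The high dose was called lower than the medium dose for MT-ND5 (-1.67), MT-ND6 (-1.51) and MT-CYB (-1.85), and higher for MT-ND4 (0.43). Vehicle codes begin with A1 and CR codes with 4, so code and treatment cannot be told apart in values against vehicle.

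**Figure D3:**
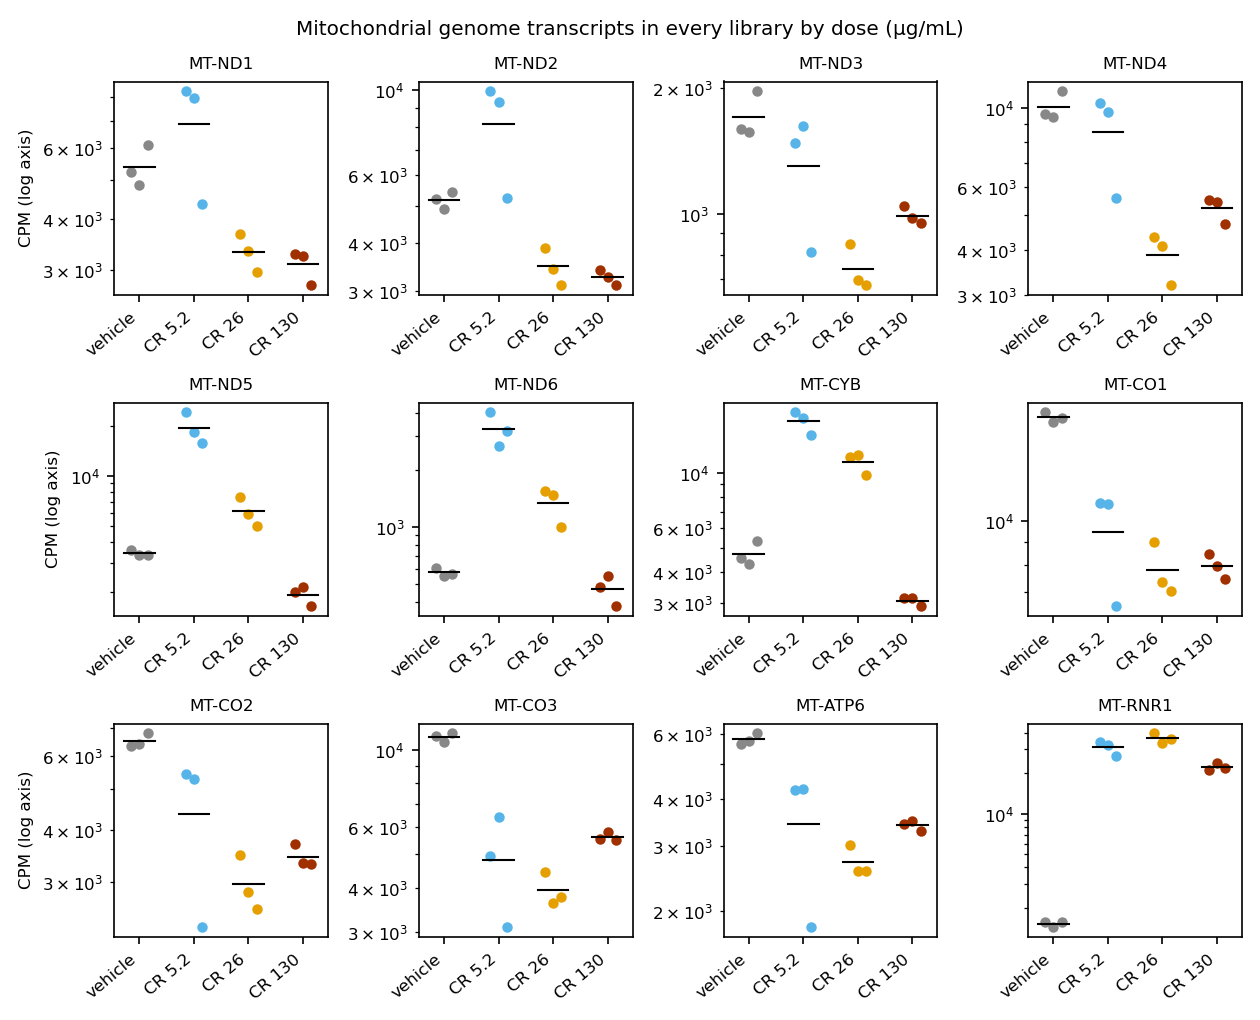
CPM of 12 transcripts of the mitochondrial genome in each vehicle, CR 5.2, CR 26 and CR 130 µg/mL library (points) with the group mean (line), each on its own log axis. MT-ND5, MT-ND6 and MT-CYB peak at 5.2 µg/mL and are lower at 26 µg/mL, while MT-RNR1 is high at all 3 doses; CR low replicate 3 is the lowest 5.2 µg/mL library for most mRNAs.

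Lists of nuclear genes for the respiratory chain, ribosome and RNA handling of mitochondria had no called member. Called nuclear genes of mitochondrial pathways stood on other lists, MTHFD2 and ALDH1L2 among them. Of 32 nuclear-encoded subunits of the respiratory chain and ATP synthase, 0 rose and 0 fell, with log2 changes of -0.15 to 0.07 and a median of -0.04. The 20 mitochondrial ribosomal protein genes (-0.20 to 0.03) and the 18 tested factors of mitochondrial transcription and RNA handling (-0.12 to 0.17) had no called member either. Among these factors, TFAM, which packs the genome and starts its transcription, differed by 0.05, POLRMT, its RNA polymerase, by -0.07, and LRPPRC, which stabilises its mRNAs, by 0.11. Of these factors 1, not named by the rule, passed without CR low replicate 1, and 1 was called higher by DESeq2. When the slope on length entered the fit, 2 factors and 1 respiratory chain subunit were called higher.

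Fibrinogen genes fell together. FGB, FGA and FGG encode the beta, alpha and gamma chains of the clotting protein and lie next to each other on chromosome 4. They were the only called members of 14 tested genes for proteins that liver secretes. On that list 0 rose and 3 fell (median -0.13), where 1.5% of all tested genes fell. FGB had 93.9, 82.8 and 91.6 CPM at the medium dose, against 134, 129 and 134 CPM at the low dose, a log2 change of -0.56 ± 0.05 (adjusted p = 1.82e-11). FGA had 102, 97.7 and 100 CPM at the medium dose and 140, 128 and 139 CPM at the low dose (-0.44 ± 0.05). FGG had 58.7, 51.8 and 54.5 CPM at the medium dose and 85.1, 75.6 and 82.4 CPM at the low dose (-0.56 ± 0.07). No library crossed between the groups in any of the 3 genes, and all 3 were called in each alternative that was run. SERPINA1, alpha-1-antitrypsin, differed by -0.06 and C3, complement component 3, by -0.04.

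Immediate early genes, which respond within minutes to hours without new protein, were called in both directions. Of all tested genes, 1.6% rose and 1.5% fell. NR4A1 had 16.8, 16.4 and 14.5 CPM at the medium dose, against 26.5, 27.1 and 25.6 CPM at the low dose, a log2 change of -0.73 ± 0.06 (adjusted p = 1.82e-11). NR4A2 averaged 1.82 ± 0.22 CPM at the medium dose and 2.8 ± 0.34 CPM at the low dose (-0.62 ± 0.16), and NR4A3 averaged 3.08 ± 0.57 CPM at the medium dose and 4.76 ± 0.92 CPM at the low dose (-0.64 ± 0.16; SD, n = 3 each). These orphan nuclear receptors of the NR4A family were the 3 falls among 17 tested immediate early genes, of which 3 others rose; 1 fall was left without CR low replicate 2, NR4A2 also lost its call without CR low replicate 1 or CR medium replicate 2, and NR4A3 without CR medium replicate 1. The rises were FOSL1 and JUN, subunits of the AP-1 factor, and KLF4 (0.35 ± 0.09), whose call was lost with any library left out but CR medium replicate 2. FOSL1 had 54.8, 55.6 and 51.9 CPM at the medium dose, against 36.3, 40.6 and 37.7 CPM at the low dose (0.50 ± 0.07, adjusted p = 2.78e-06). JUN had 48.5, 48.3 and 46.8 CPM at the medium dose and 37.9, 38.9 and 33.5 CPM at the low dose (0.38 ± 0.06). EGR1 (0.12) and FOS (-0.40) were not called.

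Feedback genes of ERK signalling, which the pathway induces to limit itself, moved upward where they were called. The share that rose over all tested genes was 1.6%. Of 13 tested, 4 rose and 0 fell: PHLDA1 (0.22 ± 0.04), the transcription factor ETV5 (0.22 ± 0.04), the ephrin receptor EPHA2 (0.20 ± 0.05) and the ERK phosphatase DUSP6 (0.35 ± 0.09). ETV5 had 79.7, 80.4 and 80 CPM at the medium dose and 68.6, 68.7 and 69.1 CPM at the low dose. The count was 2 without CR low replicate 1 or without CR medium replicate 2, where DUSP6 and EPHA2 lost their calls; EPHA2 also lost it without CR medium replicate 1 or CR low replicate 3.

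Some genes of cholesterol synthesis and uptake, which SREBP2 controls, fell at the medium dose. Of 25 tested, 0 rose and 6 fell, where 1.6% of all tested genes rose and 1.5% fell. All 25 had a log2 change below 0, and the median was -0.19. INSIG1, which holds SREBP2 in the endoplasmic reticulum and is one of its targets, had 20, 20.1 and 20.6 CPM at the medium dose, against 25.3, 26.7 and 26.8 CPM at the low dose (-0.38 ± 0.06, adjusted p = 1.98e-05). The sterol transporter STARD4 and the enzymes DHCR7 and SQLE fell by 0.26, 0.21 and 0.14 on the log2 scale. STARD4 lost its call with any library left out but CR low replicate 2, SQLE without CR medium replicate 1 or 2 or CR low replicate 2 or 3, and DHCR7 without CR medium replicate 1 or CR low replicate 2. The count of 6 was 3 without CR medium replicate 1 or CR medium replicate 2, and 12 when the slope on length entered the fit. In fatty acid synthesis 0 of 14 rose and 2 fell, the desaturase FADS2 (-0.23 ± 0.04) and the elongase ELOVL5 (-0.15 ± 0.04), the second of them lost without CR medium replicate 1 or 3 or CR low replicate 1 or 3. The cholesterol exporters ABCG1 and ABCA1, targets of LXR, were called higher (1.25 ± 0.33, adjusted p = 0.0206, and 0.55 ± 0.15, adjusted p = 0.0361), 2 of 8 on that list. ABCG1 had 1.6, 1.34 and 1.53 CPM at the medium dose and 0.494, 0.685 and 0.689 CPM at the low dose. Neither held in all refits: 0 of the list were called without CR medium replicate 1, CR low replicate 1, CR medium replicate 3 or CR low replicate 3, and 1 without CR medium replicate 2 or CR low replicate 2.

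Some proliferation genes fell slightly. Among 25 genes of mitosis and cytokinesis, 0 rose, 8 fell and the median was -0.15. Among 25 of DNA replication and nucleotide supply, 0 rose, 3 fell and the median was -0.10. The share that fell over all tested genes was 1.5%. RRM2, a subunit of ribonucleotide reductase, had 227, 238 and 234 CPM at the medium dose, against 275, 273 and 293 CPM at the low dose (-0.26 ± 0.03, adjusted p = 5.26e-07). PLK1, a mitotic kinase, had 157, 149 and 154 CPM at the medium dose and 168, 187 and 179 CPM at the low dose (-0.21 ± 0.03). AURKA, another mitotic kinase, and NUSAP1, a spindle protein, fell by 0.21 and 0.26 on the log2 scale. MKI67, which encodes the proliferation antigen Ki-67, differed by -0.03 and was not called. The mitosis count of 8 was 3 without CR medium replicate 1, 4 without CR low replicate 1 or CR medium replicate 3, 5 without CR low replicate 2, and 17 when the slope on length entered the fit.

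Among G1 regulators, CCND3, cyclin D3, had 170, 156 and 155 CPM at the medium dose, against 203, 203 and 219 CPM at the low dose (-0.38 ± 0.05, adjusted p = 1.71e-06), while CCND1, cyclin D1, differed by 0.10 and was not called. Of 20 tested p53 targets, 5 rose and 0 fell: SESN2, which is also on the stress response list, GADD45A (0.43 ± 0.10), the death receptor gene TNFRSF10B (0.30 ± 0.06), CDKN1A (0.19 ± 0.05) and AEN (0.15 ± 0.04). MDM2, the p53 ubiquitin ligase, differed by 0.07 and BAX, an effector of apoptosis, by 0.01, neither called. The share that rose over all tested genes was 1.6%. The count of p53 targets that rose was 3 without CR medium replicate 1 or 3 or CR low replicate 1 or 2. CDKN1A, which encodes the kinase inhibitor p21, lost its call without CR medium replicate 1 or 3 or CR low replicate 1, GADD45A without CR low replicate 2, and AEN without CR medium replicate 1 or 3 or CR low replicate 1 or 2.

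In the NF-kB inflammation list 4 of 19 tested genes rose and 1 fell. The median was 0.17, and of all tested genes 1.6% rose and 1.5% fell. CXCL5, a neutrophil chemokine, had 119, 134 and 127 CPM at the medium dose, against 94.3, 93.9 and 106 CPM at the low dose (0.37 ± 0.05, adjusted p = 1.33e-06). CXCL2 (0.49 ± 0.13), the NF-kB subunit NFKB2 (0.27 ± 0.06) and the inhibitor of apoptosis BIRC3 (0.23 ± 0.06) also rose. CXCL2 lost its call with any library left out but CR low replicate 3, and BIRC3 without CR low replicate 1 or CR medium replicate 2. PTGS2, cyclooxygenase 2, was the member that fell (-0.48 ± 0.12), a call lost without CR medium replicate 1 or 2 or CR low replicate 1 or 3.

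Genes of cell junctions and keratins moved in both directions. In the list of epithelial and mesenchymal state genes 3 of 18 rose and 3 fell (1.6% and 1.5% over all tested genes). OCLN (0.40 ± 0.07) and CLDN1 (0.25 ± 0.05), of tight junctions, and the keratin KRT80 (0.22 ± 0.06) were higher. The claudin CLDN2 (-0.36 ± 0.08), SNAI1, a repressor of epithelial genes (-0.36 ± 0.07), and the keratin KRT4 (-0.34 ± 0.07) were lower. KRT80 lost its call without CR low replicate 1 or 3 or CR medium replicate 2, and CLDN2 without CR low replicate 1 or CR medium replicate 2.

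Outside the lists, the rises past the filter of the naming rule were led by NIBAN1, a protein of stressed cells, with 41.4, 53.9 and 46.4 CPM at the medium dose, against 26.5, 25.6 and 19.1 CPM at the low dose (0.99 ± 0.13, adjusted p = 6.11e-07). GREM1, an antagonist of bone morphogenetic proteins and on the list of BMP targets, had 15.9, 18.8 and 17 CPM at the medium dose and 8.21, 9.59 and 8.61 CPM at the low dose (0.97 ± 0.11, adjusted p = 2.84e-08). It was the 1 riser of 11 on its list, where ID1 differed by -0.14, and 1.6% of all tested genes rose. SLFN5 (0.78 ± 0.12), AKNA (0.74 ± 0.11), the surface protein CDCP1 (0.74 ± 0.16) and the protease inhibitor SERPINB8 (0.65 ± 0.11) followed. ARHGEF5 (0.72) and BSN (0.68) completed the 12 largest rises of genes with a symbol, and both lost the call without CR medium replicate 2 or CR low replicate 3, BSN also without CR medium replicate 1.

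Among the falls of nuclear genes, H19, an imprinted long noncoding RNA, had 42.4, 39.4 and 45.1 CPM at the medium dose, against 71.5, 67.6 and 72.8 CPM at the low dose (-0.74 ± 0.08, adjusted p = 1.86e-09). INSL4, an insulin-like peptide of placenta, had 11, 9.2 and 9.96 CPM at the medium dose and 17.3, 14.2 and 19.9 CPM at the low dose (-0.76 ± 0.13). TPPP3 (-0.86 ± 0.13), UPK3B (-0.80 ± 0.12) and RHOV (-0.79 ± 0.14), a small GTPase gene, were lower at levels under 11 CPM in every CR medium and CR low library. PDK4, which blocks pyruvate dehydrogenase, had 13.5, 14.7 and 15.9 CPM at the medium dose and 21.4, 19.9 and 23.2 CPM at the low dose (-0.54 ± 0.10), and SLC2A3, the glucose transporter GLUT3, fell by 0.37 ± 0.06. Of 22 antioxidant targets of NRF2, 1 rose and 0 fell: TXNRD1, thioredoxin reductase 1 (0.15 ± 0.04), a call lost without CR medium replicate 2 or 3 or CR low replicate 2 or 3. The TXNRD1 call is given for the gene and not for its list, as 1.6% of all tested genes rose. Clock genes, metallothioneins and drug transporters had 0 called of 15, 6 and 8 tested.

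The remaining lists had few calls, all small. Of all tested genes 3.1% were called, 1.6% higher and 1.5% lower. A single call is too few to set against these shares and is given for the gene, not for its list. Among hypoxia-inducible genes 2 of 15 rose, the stress gene NDRG1 (0.24 ± 0.05) and the growth factor gene VEGFA (0.21 ± 0.05), and 2 fell, the oxygen sensors EGLN1 (-0.22 ± 0.04) and EGLN3 (-0.34 ± 0.09), the second of them lost without CR medium replicate 1 or 2 or CR low replicate 1 or 3. In glycolysis and glucose transport 2 of 22 rose, PFKP (0.15) and ENO2 (0.20), and 2 fell, SLC2A3 and PGK1 (-0.15), and the calls of PFKP, ENO2 and PGK1 were each lost with 5 of the 6 libraries left out in turn, CR low replicate 3 among them. Of 19 apoptosis regulators 3 rose and 0 fell: TNFRSF10B, the survival factor MCL1 (0.19 ± 0.04) and CFLAR (0.20 ± 0.05), an inhibitor of caspase 8. AJUBA (0.23 ± 0.04) and the receptor kinase AXL (0.22 ± 0.05) were the 2 risers of 13 YAP targets. ETV5 was also the 1 riser of 5 tested alveolar type II genes. Further lists with a single call gave OAS1 of 15 interferon-stimulated genes (-0.40 ± 0.08), the metal transporter SLC39A14 of 10 iron genes (0.22 ± 0.06), RRP12 of 22 ribosome biogenesis genes (0.20 ± 0.04), and the autophagy receptor SQSTM1 of 28 lysosome and autophagy genes (0.19 ± 0.05). Among them, SQSTM1 lost its call with any library left out but CR low replicate 3, SLC39A14 without CR medium replicate 2 or 3 or CR low replicate 3, and RRP12 without CR low replicate 2. VEGFA lost its call without CR low replicate 1, CR medium replicate 2 or CR low replicate 3, and CFLAR without CR medium replicate 2 or CR low replicate 2 or 3.

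**Figure D4:**
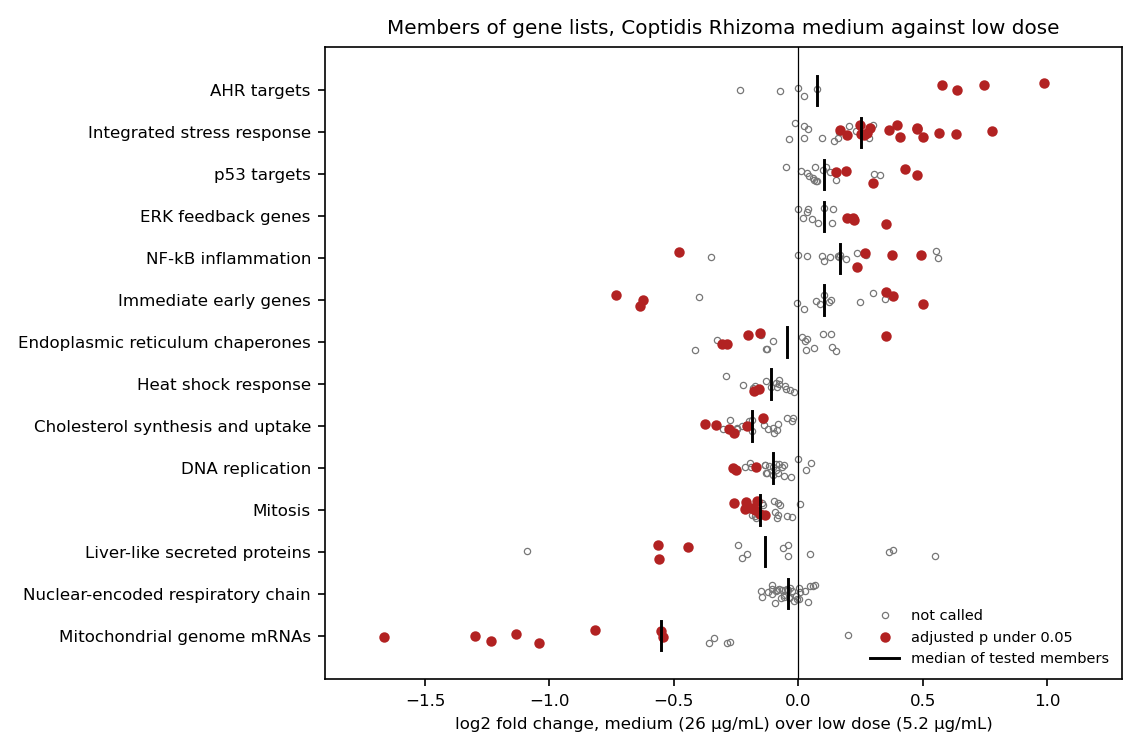
Log2 fold change of CR medium over CR low for the tested members of 14 gene lists; filled points are called genes, open points are not, and the bar is the median of the list. The mitochondrial mRNAs lie furthest to the left (median -0.55), the integrated stress response lies to the right (0.25), and the nuclear-encoded respiratory chain centres near 0 (-0.04).

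A 5-fold step of another extract in libraries with the same first code number gave a background. Between ZF medium and ZF low, 0 of 17129 genes were called by edgeR (456, or 2.66%, at an unadjusted p under 0.05), against 2 by DESeq2 and 44 with no filter on low counts. Over the 531 genes called between the CR doses, the log2 change had an SD of 0.43 in the CR step and 0.088 in the ZF step, where the CR values were used in choosing them; over all 17129 tested genes the SD was 0.336 in the CR step and 0.316 in the ZF step. The difference of the 2 steps itself was called for 119 genes (0.695%), 57 with the higher change in CR (0.333%) and 62 with the lower (0.362%), and 117 of them were among the 531. It was 516 when the slope on length entered the fit, 13 with the 12 libraries of the 4 groups alone, 77 without CR medium replicate 2 or ZF medium replicate 3, 67 without ZF medium replicate 1 and 69 without ZF low replicate 2. MT-ND5 changed by -1.66 in the CR step and 0.19 in the ZF step, a difference of -1.85 ± 0.28 (adjusted p = 8.82e-05). FGB changed by -0.56 and -0.01 (difference -0.56 ± 0.07, adjusted p = 2.32e-06), TIPARP by 0.75 and 0.07 (0.67 ± 0.11, adjusted p = 0.000201) and TRIB3 by 0.56 and -0.05 (0.62 ± 0.09, adjusted p = 2.52e-05). CYP1A1 changed by 0.99 and 0.14, and the difference, 0.84 ± 0.32, was not called (adjusted p = 0.36). The doses of the 2 extracts were set in different ways.

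**Figure D5:**
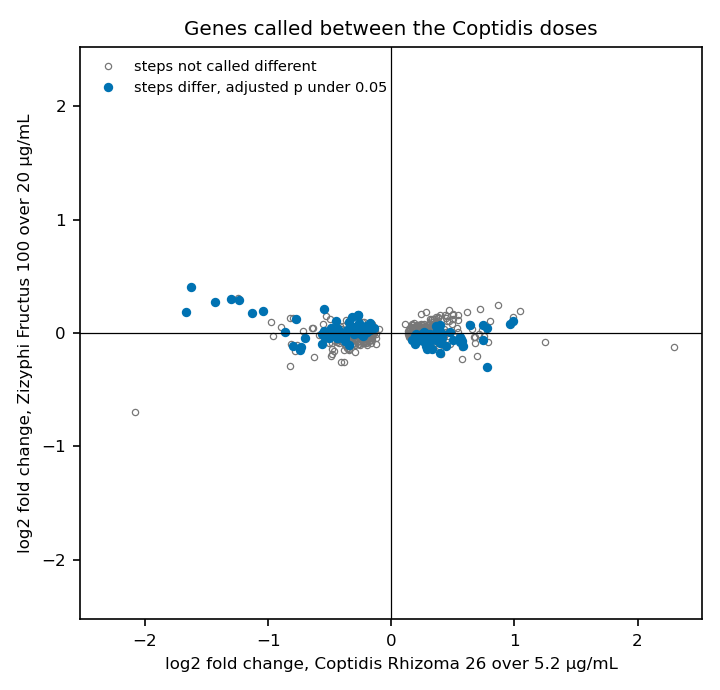
Log2 fold changes of the 531 genes called between the CR doses: CR 26 over 5.2 µg/mL on the x axis, ZF 100 over 20 µg/mL on the y axis. Filled points are the genes whose 2 steps differed (adjusted p under 0.05); the SD is 0.43 along x, whose values chose the genes, and 0.088 along y, against 0.336 and 0.316 over all tested genes.

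Where the medium and low doses stand on the way from vehicle to the top dose differed between groups of genes. The low dose alone already differed from vehicle at 3024 genes (17.7%, 8.51% higher and 9.15% lower). The count was 1297 without CR low replicate 3, 1277 without vehicle replicate 1 and 1670 without vehicle replicate 2. It was 2087 when the slope on length entered the fit, and only 1139 of these were among the 3024. Log2 changes of the low dose over vehicle correlated with transcript length at -0.379 (Spearman). The same correlation was -0.248 for the medium dose over vehicle and 0.186 for the high over the medium dose. The medium dose differed from vehicle at 3979 genes (23.2%, 12.1% higher and 11.1% lower). The high dose differed from the medium dose at 1290 (7.53%, 3.59% higher and 3.94% lower). That count was 830 without CR medium replicate 1 and 2507 when the slope on length entered the fit. These comparisons share libraries with each other, so values are set side by side with no test between them. In the integrated stress response, 24 of 29 genes were called higher at the low dose than in vehicle, with a median of 0.71, against a median of 0.25 for the medium over the low dose and 0.14 for the high over the medium dose. TRIB3 averaged 65.2 CPM in vehicle, 175, 259 and 330 CPM at 5.2, 26 and 130 µg/mL, and CHAC1 changed by 1.83, 0.36 and 0.09 log2 units over the 3 steps. TIPARP took another course, with 35.7 CPM in vehicle and 42.6, 71.6 and 123 CPM over the doses. CYP1B1 averaged 54.8 CPM in vehicle and 80.2, 125 and 195 CPM over the doses, and GREM1 5.04, 8.8, 17.3 and 41.4 CPM in the same order. SLFN5, INSL4, TPPP3 and RHOV were not called between the low dose and vehicle (0.33, -0.04, 0.06 and 0.00 on the log2 scale) and first passed the test at the step to the medium dose. FGG was likewise not called at the low dose (-0.03), and FGB fell in each step, by 0.27, 0.56 and 0.93. ABCA1 averaged 10.33 CPM in vehicle and 7.62, 11.18 and 13.85 CPM over the doses, and TXNRD1 2062, 1851, 2060 and 2333 CPM in the same order. Both were called lower at the low dose than in vehicle (-0.435 and -0.156). At the medium dose neither was called against vehicle (0.11 and -0.002). ABCG1 was not called at the low dose (0.125). Of the mitosis genes, 17 of 25 were called lower at the low dose than in vehicle (median -0.20), 8 in the step to the medium dose (-0.15) and 22 in the step to the high dose (-0.32).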

How the data were processed

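Poly(A) RNA of A549 cells was sequenced as directional paired libraries, per the labels' protocols. The authors deposited estimated counts per gene, made with STAR 2.7.3a and RSEM 1.3.3 on GRCh38 after FastQC 0.11.9 and Trim Galore 0.6.5, per the submitters' processing notes; the sources used here name no annotation release or strand setting. The table holds 60675 genes in 269 libraries, of which the 60 of this series were used and 209 columns were not. Rounding turned these into whole numbers. A current table gave symbols for 56558 IDs and GENCODE 29 for 497, and 3620 without a name held 0.0579% of counts. Depth ran from 17420400 to 36479600 counts per library, and intervals cover counting error only.

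The test was edgeR 4.0.16 quasi-likelihood in R 4.3.3 (TMM, filterByExpr by group, robust) on all 60 libraries in 20 groups of 3 with 40 residual degrees of freedom; calls are at a Benjamini-Hochberg adjusted p under 0.05 over 17129 genes. The SE is the log2 change over the root of F. Alternatives used DESeq2 1.42.0 as a test and for size factors, no filter, a replicate block, a length-slope covariate, fewer libraries, and each library left out; normalisation on nuclear genes was chosen after seeing the data. The code for CR medium against CR low was also run on counts simulated from its own fit. These held no trend on length between replicates and no outlying library, so that run does not bear on either. Genes named by rule were the 12 largest rises and falls among called genes with a symbol that averaged 1 or more log2 CPM and had no overlap, the 3 called genes of each list with the smallest p, and a small panel; all others named were chosen after their values were seen. Some genes that the rule picks are not reported here. The comparison's members and gene lists were chosen with earlier results of these data known.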

Additional observations from a re-analysis of the deposited data

Results flagged for a closer look

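Named genes were singled out where the change between CR medium and CR low differed from that between ZF medium and ZF low, by a test of the difference itself (edgeR quasi-likelihood, 119 genes in all at an adjusted p under 0.05). Values are CR step minus ZF step on the log2 scale, and each gene's p was adjusted over all genes tested. Apart from the panel, genes were named by their CR step. That step is part of the difference, so the difference is not separate evidence for these genes.

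The mitochondrial genome gave the lowest values: -1.85 for MT-ND5, -1.6 for MT-ND6, -1.53 for MT-ND2, -1.31 for MT-ND4 and -1.24 for MT-ND1, with -1.71 for the nuclear copy MTND2P28, which shares reads with MT-ND2. In the ZF step these 6 changed by 0.18 to 0.30, none of them called. Fibrinogen genes had -0.56 for FGB, -0.4 for FGA and -0.46 for FGG. The other genes with a lower change in CR were TPPP3 (-0.87), UPK3B (-0.68), NR4A1 (-0.61), H19 (-0.59), PDK4 (-0.56), SLC2A3 (-0.37), INSIG1 (-0.36) and CCND3 (-0.31). Proliferation genes were NUSAP1 (-0.3), RRM2 (-0.27) and PLK1 (-0.22), and the oxygen sensor EGLN1 had -0.24.

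On the higher side, the stress response genes had 1.08 for ADM2, 0.62 for TRIB3, 0.56 for STC2, 0.47 for SESN2, 0.38 for PPP1R15A and 0.32 for ASNS. The AHR targets TIPARP and CYP1B1 had 0.67 and 0.57. The rest were NIBAN1 (0.88), GREM1 (0.88), AKNA (0.8), SLFN5 (0.73), CXCL5 (0.41), CDKN1A (0.29) and AJUBA (0.26).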

How the results depend on the processing

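The comparison of CR medium with CR low gave 531 calls. It gave 189 in the fit of the 18 CR and ZF libraries, 161 there with the replicate block, 51 in the fit of the 6 libraries, 1300 with a length covariate, and 309 to 444 with each library left out; of the causes only the smaller number of libraries is given by construction, and the cause of the others was not tested. DESeq2 gave 613, of which 512 were shared, and no filter on low counts gave 567, of which 300 were shared. The difference between the CR and ZF steps (119 calls) gave 21, 19 and 13 in the fits of fewer libraries (18, 18 with block, 12), 516 with the length covariate, and 67 to 103 with each library left out. The ZF step (0 calls) gave 44 with no filter and 2 with DESeq2, and 0 with each library left out. With each library left out, CR low against vehicle (3024 calls) gave 1277 to 2890 and CR medium against vehicle (3979) 2738 to 3920. CR high against CR medium (1290) gave 830 to 1166 in the same way. With the length covariate these comparisons gave 2087, 4772 and 2507 calls, of which 1139, 3216 and 1283 were shared. Scaling moved no median by over 0.1.

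Same-numbered CR medium and low libraries had deviations from their group means correlated at -0.355, 0.478 and 0.043. CR medium replicate 2 correlated best with its own number, and CR medium replicate 1 with CR low replicate 3 (0.597). Deviations from a mean of 3 libraries are not independent, so these values cannot settle whether a number marks a shared culture. The replicate block over all 60 libraries gave 519 calls for CR medium against CR low, 113 for the difference of steps, and kept the call of 81 of the 82 called named genes. AHRR, outside the naming rule, was not called under the block (adjusted p = 0.0568).

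Over 15 alternatives, 1065 of 1290 values of the 86 named genes kept direction and side of the threshold, 219 lost the call, 6 gained it and 0 turned sign. Of the 82 called named genes, 22 kept the call in the fit of the 6 libraries, and 56 kept it with every library left out in turn. Depth of 17420400 or more counts leaves genes below the filter untested.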
